A study of Mus musculus with 24 samples.

Results

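Proximal tubule solute transporters and endocytic receptors were followed as a module of 40 genes among the 30153 genes of the deposited table. The genes were listed by name from the known physiology of this nephron segment, with earlier results of these data at hand. Every one of the 40 was found in the table by its Ensembl identifier on mouse build GRCm38. RNA came from 24 mouse libraries in 6 groups of 4, labelled as kidney. All mice are labelled as strain C57/BL6. Hap-I and Hap-II are haplotypes of the human angiotensin receptor type 1 gene carried as a transgene, and C57 is the group without it. On western diet there were Hap-I adults, Hap-I aged mice and Hap-II adults. The other groups were C57 adults, Hap-I adults and Hap-I aged mice, whose labels mention no diet. The labels give no age in months, no sex and no batch, and neither the promoter of the transgene nor the number of founder lines. No group is labelled as C57 on western diet, so that transgene and diet cannot be told apart in any comparison with C57. Expression is given as TPM, a transcript abundance scaled to transcript length, so that levels of different genes can be set side by side. Tests used log2(TPM + 1) in limma across all genes, with Benjamini-Hochberg adjustment and a threshold of 0.05.

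The proximal tubule reclaims most filtered solutes by coupling them to the sodium gradient across the cell membrane. Transporters in the brush border take up glucose, amino acids, phosphate and carboxylates, basolateral partners pass them on to the blood, and organic anion and cation carriers work in the secretory direction. Megalin and cubilin retrieve filtered proteins by endocytosis. Early and late stretches of the tubule use different carriers for the same solute, with high capacity early and high affinity late.

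In the kidney libraries the module was expressed as its label says. In C57, 23 of the 40 genes averaged above 100 TPM and 15 lay between 10 and 100 TPM. The remaining 2 averaged at most 1 TPM there, the organic anion carrier Slco1a1 and the brush border sodium-proton exchanger Slc9a3. Slc9a3 was listed at or near 0 in all 24 libraries, the highest value being 0.0795 TPM, and failed the low filter of 1 TPM in at least 4 of the 16 kidney libraries. Slc9a3 is known as a proximal tubule gene, and absence from the RNA cannot be told apart here from a failed estimate. It is not tested below, and 39 genes are. Summed over the module, C57 held 7269.9 ± 840.6 TPM (SD, n = 4), and the 12 libraries on western diet held between 2550.1 and 8046.5 TPM.

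**Figure D1:**
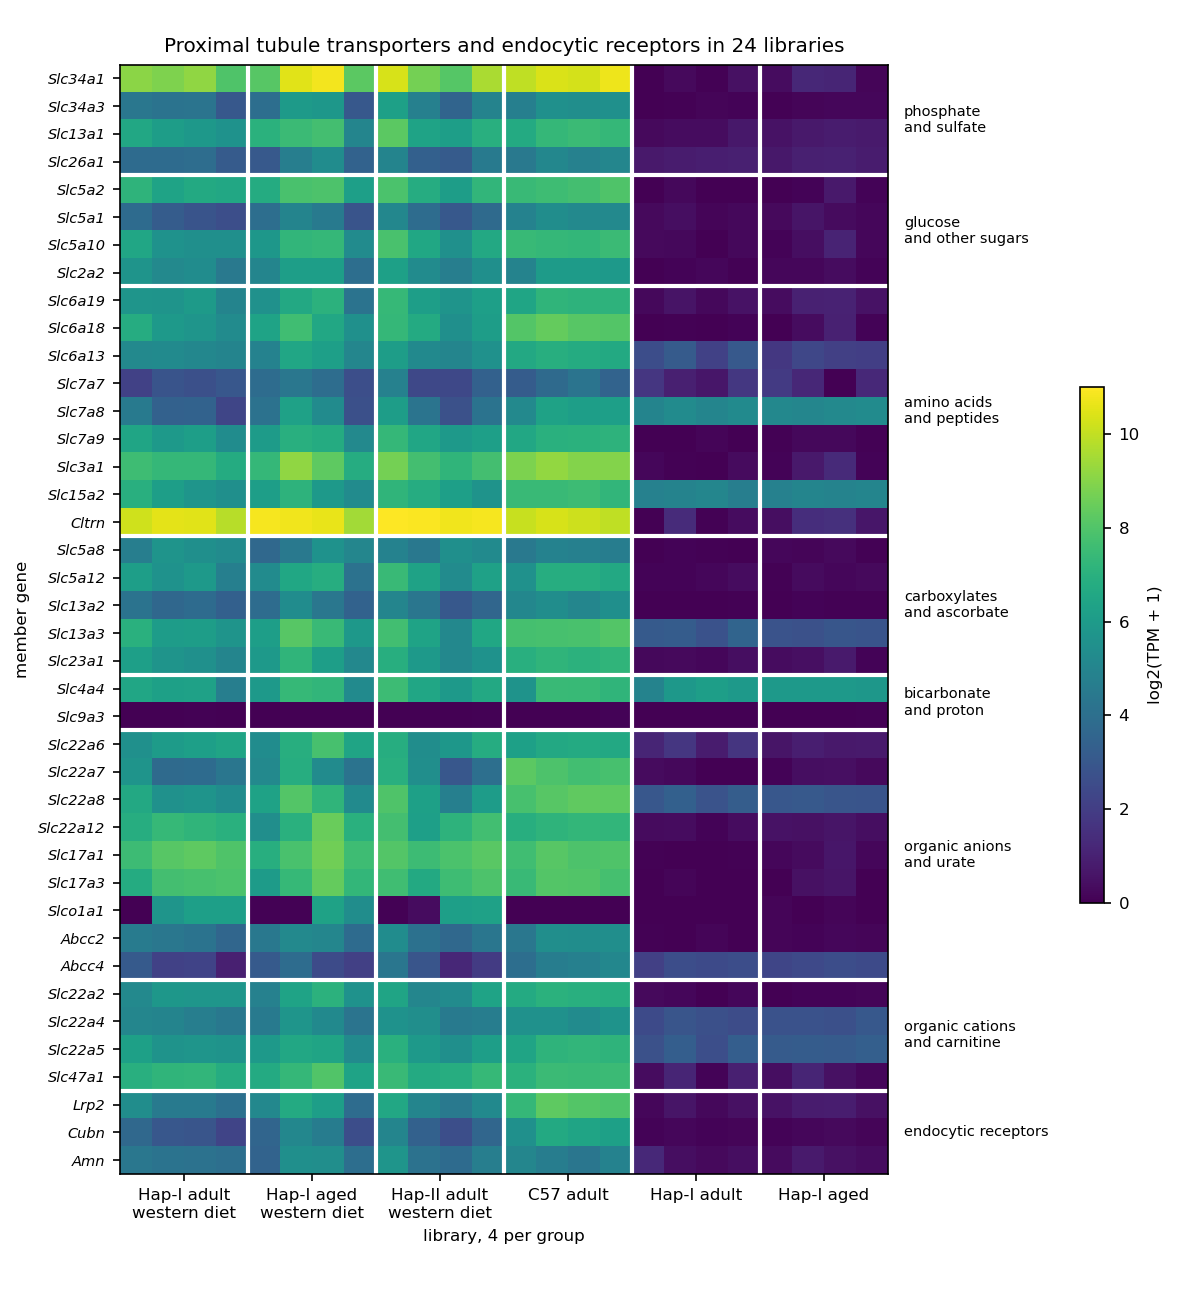
Level of each of the 40 genes as log2(TPM + 1), by colour, in every library (columns, 4 per group) and by solute class (rows). Slco1a1 is dark in C57 and in 5 of the 12 libraries on western diet, Slc9a3 is dark throughout, and most genes are dark in the 8 libraries on the right.

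The listed TPM summed to 921638 to 944019 in the libraries on western diet and to 911725 to 916212 in C57. Several libraries stood apart before any comparison. The 8 Hap-I libraries whose labels name no diet carried 5632.5 to 8434.9 TPM of 8 neuronal and glial markers, against at most 55.6 TPM in the other 16, and serve here only as an outside reference. Mitochondrially encoded genes took 21.2 to 35.7% of the TPM on western diet and 12.4 to 16.9% in C57. C57 library 1 had 106.6 TPM of 4 urothelial markers, against 24.2 TPM in the lowest C57 library, and a low share of long transcripts. The Y-linked gene Eif2s3y was at 7.05 TPM or more in 7 of the 12 libraries on western diet and at 0.336 TPM or less in the other 5 and in all of C57. The 7 were 3 Hap-I adults, 2 Hap-I aged mice and 2 Hap-II adults. The Y-linked genes Ddx3y, Eif2s3y, Kdm5d and Uty together held 13.2 to 40.2 TPM in these 7. In the other 5 and in C57 they held at most 2.16 TPM. No C57 library was like the 7, so that in comparisons with C57 this difference is mixed with transgene and diet.

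Compared with C57, calls in the module were mainly towards lower levels on western diet as deposited, and so were calls over all genes. In Hap-I adults, 24 of 39 genes were lower and 1 was higher, where 59.7% of all 12923 genes tested were lower, 2.28% were higher and 62% were called in either direction. In Hap-II adults, 14 were lower and 1 was higher, against 36.9% lower, 2.73% higher and 39.7% either way. The members' shares lie near these backgrounds and are no result about the module. The Hap-II count of 15 in all moved between 5 and 22 when 1 library was left out (5 without Hap-II library 3, 22 without Hap-II library 1), and the Hap-I count of 25 between 17 and 26. In the same fits the share of all genes called moved between 14.0 and 54.2% in Hap-II and between 46.8 and 62.9% in Hap-I. The median difference of the module was -1.18 in Hap-I and -0.74 in Hap-II, beside -0.80 and -0.59 over all genes. The Hap-II median was -1.12 without Hap-II library 1, where that of all genes was -0.74, and -0.41 without Hap-II library 3, where that of all genes was -0.46. Both comparisons share the 4 C57 libraries, so their values are given side by side and not as a repeat.

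The direction of the whole table depended on its scale. Under median-of-ratios rescaling, which sets the typical gene to no change, the all-gene medians became -0.01 and -0.0032 and the calls were 2304 higher and 1831 lower in Hap-I, and 1661 higher and 1262 lower in Hap-II. Of the module, 4 genes were then higher and 10 lower in Hap-I, where 32% of all genes were called. In Hap-II, 1 was higher and 5 lower, where 22.6% were called. Differences below are on the deposited scale and stand against all-gene medians of -0.80 in Hap-I and -0.59 in Hap-II. Counts of lower members by class, on the same scale, stand against 59.7% of all genes lower in Hap-I and 36.9% in Hap-II. Over 6 ways of scaling or adjusting the values, 8 genes were lower throughout in Hap-I, namely Slc5a1, Slc6a18, Slc6a13, Slc3a1, Slc22a7, Abcc4, Lrp2 and Cubn. Of all 12910 genes tested in each setting, 9.51% were lower in all 6. In Hap-II these were 4, Slc6a18, Slc22a7, Lrp2 and Cubn, where 6.6% of all genes were. Of the 24 members lower in Hap-I as deposited, Slc22a8 and Slc7a8 joined these 8 in passing under median-of-ratios rescaling, and of the 14 in Hap-II the 4 and Abcc4 did. The other calls of lower levels given below were lost under that rescaling. The 6 were the values as deposited, median-of-ratios, quantile normalization, removal of mitochondrially encoded genes, a Y-linked covariate and removal of a trend with transcript length.

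**Figure D2:**
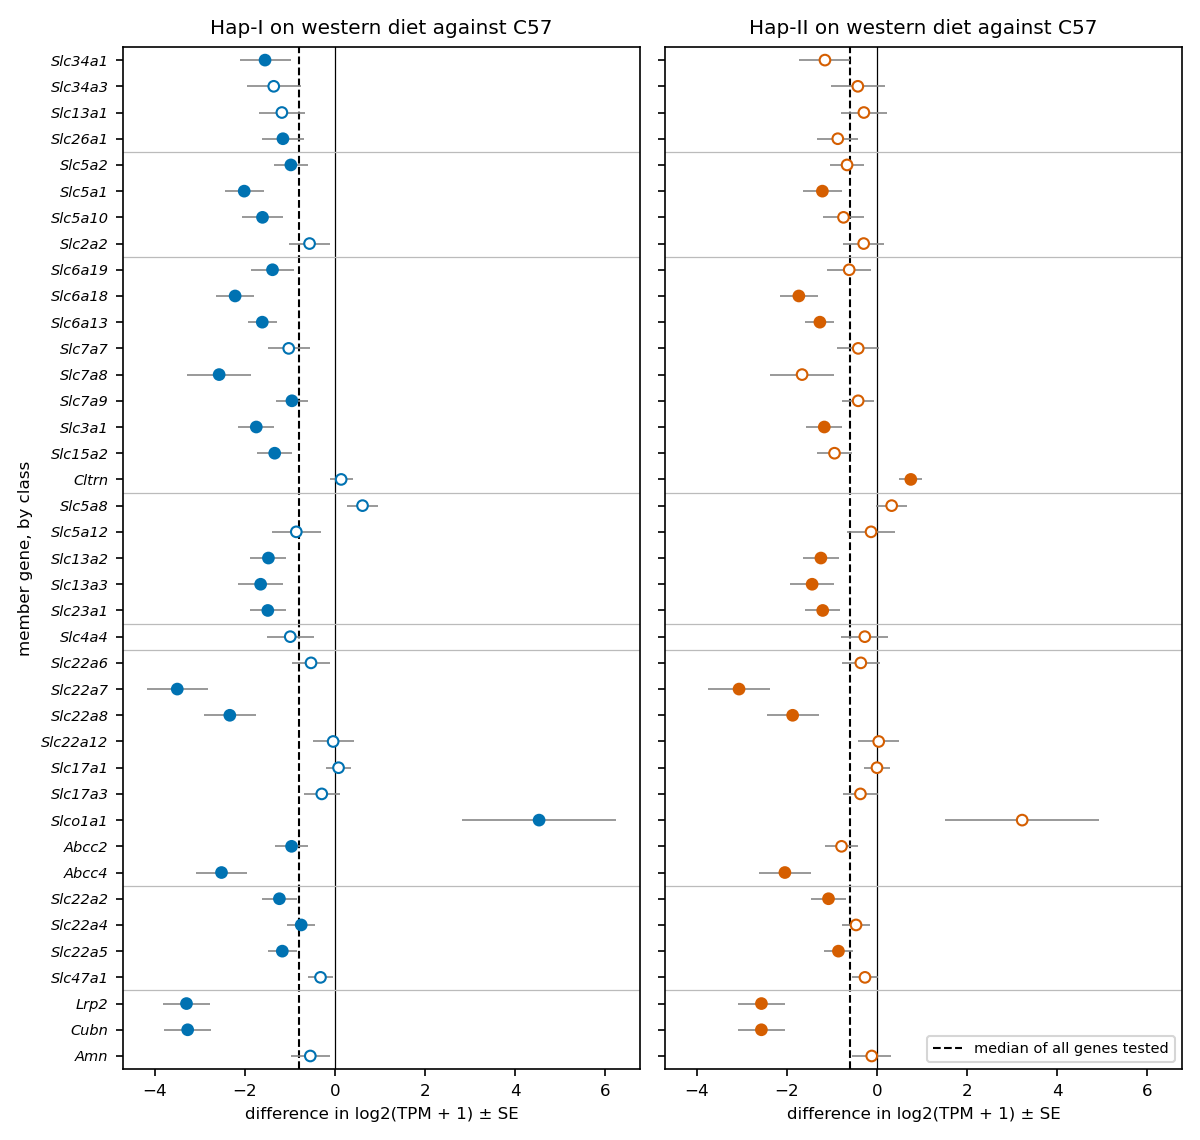
Difference from C57 in log2(TPM + 1) with its SE for 39 genes, grouped by class, in Hap-I (left) and Hap-II adults on western diet (right). Filled points passed the test, and the dashed line is the median of all genes tested, at -0.80 and -0.59; Slc22a7, Lrp2 and Cubn lie farthest below it.

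Of the 3 endocytic receptor genes, the 2 large receptors were lower in both comparisons and their small partner passed in neither. Lrp2 encodes megalin (ENSMUSG00000027070, chromosome 2, 69424340 to 69586065), the large scavenging receptor of the brush border. It stood at 159.8, 304, 265 and 246 TPM in C57, where values here and below follow the order of libraries 1 to 4. In Hap-I adults it was at 41.4, 21.2, 21.2 and 15.7 TPM, in Hap-I aged mice at 34.2, 104, 71.8 and 13.8 TPM and in Hap-II adults at 96.4, 31.6, 21.1 and 36.4 TPM. Every C57 library was above every library on western diet. The difference was -3.29 ± 0.52 in Hap-I (SE, n = 4, adjusted p = 0.000788) and -2.56 ± 0.52 in Hap-II (adjusted p = 0.00398), or -2.49 and -1.97 relative to the all-gene median.

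Cubn encodes cubilin (ENSMUSG00000026726, chromosome 2, 13276338 to 13491813), which binds albumin and vitamin carriers and has no membrane anchor of its own. It stood at 45.1, 103, 85.5 and 75.98 TPM in C57, at 12.1, 6.87, 6.51 and 3.82 TPM in Hap-I adults, at 10.9, 33.2, 23.2 and 4.97 TPM in Hap-I aged mice and at 30.9, 9.56, 5.31 and 11.2 TPM in Hap-II adults. Again no library on western diet reached the C57 range. The differences were -3.27 ± 0.52 (adjusted p = 0.000801) and -2.57 ± 0.52 (adjusted p = 0.00391). Amn encodes amnionless (ENSMUSG00000021278, chromosome 12, 111271095 to 111276426), the small membrane subunit that carries cubilin to the cell surface. It was at 32.1, 24.2, 18.8 and 28.4 TPM in C57, 19.4, 17.4, 16.8 and 15.1 TPM in Hap-I adults, 10.2, 43.1, 41.7 and 14.6 TPM in Hap-I aged mice and 52.7, 16.7, 13.2 and 25.1 TPM in Hap-II adults. Its groups overlapped, with differences of -0.54 ± 0.43 (adjusted p = 0.272) and -0.12 ± 0.43 (adjusted p = 0.836).

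Ratios of genes within a library do not depend on the library's scale. They were chosen after the values were seen and are described without a test. Cubn over Amn was 1.41 to 4.54 in C57 and 0.253 to 1.06 in the 12 libraries on western diet. Lrp2 over Amn was 4.99 to 14.0 in C57 and 0.940 to 3.34 on the diet. Neither range touched the other. Both ratios also differed without overlap between the 7 libraries with Eif2s3y and the other 5 on the diet. Cubn over Amn was 0.253 to 0.557 in the 7 and 0.571 to 1.06 in the 5, and Lrp2 over Amn 0.940 to 1.72 and 1.83 to 3.34. Lrp2 over Cubn was 2.95 to 3.54 in C57 and 2.77 to 4.11 on the diet, so that the 2 receptors kept nearly 1 ratio while both fell relative to Amn.

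**Figure D3:**
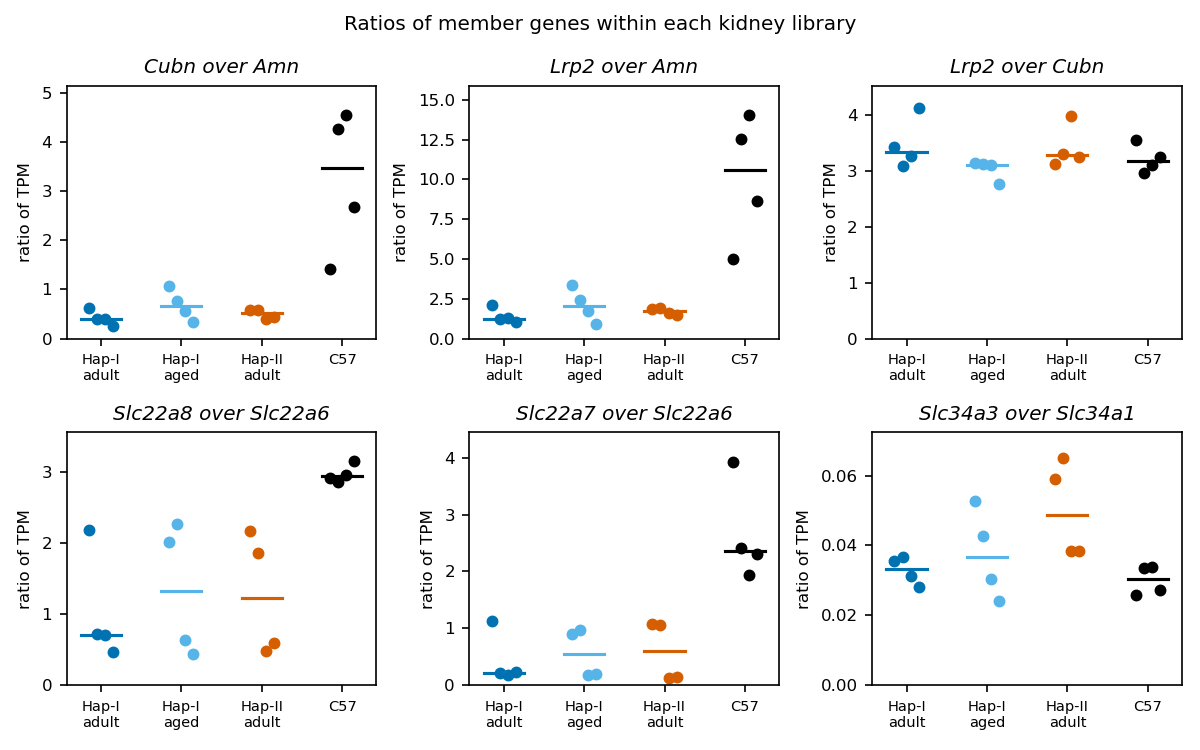
Ratio of TPM of named gene pairs in each kidney library (points) with the group median (bar), on linear axes from 0. For Cubn over Amn, Lrp2 over Amn, Slc22a8 over Slc22a6 and Slc22a7 over Slc22a6 all C57 points lie above all points on western diet, while Lrp2 over Cubn overlaps between all groups.

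Lrp2 and Cubn are also the longest of the 40 genes by annotated transcript, at 15460 and 11262 nt, and Amn is among the shortest at 1701 nt. Over all genes the median difference between Hap-I adults and C57 went from -0.21 for transcripts up to 1000 nt to -1.08 above 10000 nt, and between Hap-II adults and C57 from -0.09 to -0.81. With this trend removed, Lrp2 still differed by -2.19 ± 0.39 (adjusted p = 0.00199) and Cubn by -2.19 ± 0.35 (adjusted p = 0.00126) in Hap-I, and by -1.70 ± 0.39 (adjusted p = 0.00871) and -1.74 ± 0.35 (adjusted p = 0.00559) in Hap-II. In C57 library 1 the median of 639 long transcripts lay 2.29 log2 units below that of 2209 short ones, as far as in the libraries on western diet (1.65 to 2.33 below), against 1.11 to 1.25 in the other C57 libraries. That library had the lowest Lrp2 and Cubn of C57, and still 159.8 and 45.1 TPM, above the highest values on western diet (103.5 and 33.2 TPM). It also had the lowest Cubn over Amn and Lrp2 over Amn of C57, 1.41 and 4.99. The other C57 libraries had 2.67 to 4.54 and 8.65 to 14.0, so that these ratios differed within C57 too. The part of RNA quality in these differences was not tested.

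**Figure D4:**
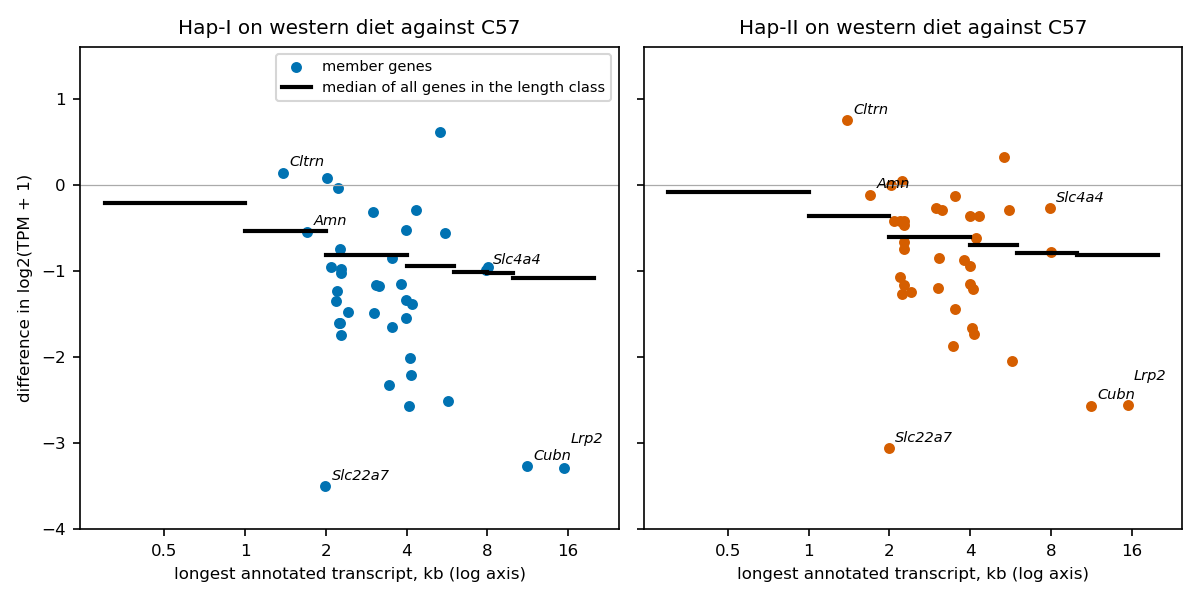
Difference from C57 in log2(TPM + 1) against the longest annotated transcript (log axis, kb) for 38 genes, Slco1a1 left out, beside the median of all genes in each length class (black bars). Medians fall with length, and Lrp2, Cubn and Slc22a7 lie well below the bars of their class.

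Promoters of both receptors are shown because the genes moved together, as the 250 bases before the RefSeq start on GRCm38.p6, 5′ to 3′ on the gene's strand. Neither holds GTTAAT or its reverse complement, the half-site bound by HNF1 factors, regulators of many proximal tubule genes. Bases just after the start were found in an annotated transcript of Lrp2 but in none of Cubn, so that the Cubn start is less certain. Lrp2 lies at chr2:69586030-69586279, minus strand, and Cubn at chr2:13491877-13492126, minus strand.
Lrp2: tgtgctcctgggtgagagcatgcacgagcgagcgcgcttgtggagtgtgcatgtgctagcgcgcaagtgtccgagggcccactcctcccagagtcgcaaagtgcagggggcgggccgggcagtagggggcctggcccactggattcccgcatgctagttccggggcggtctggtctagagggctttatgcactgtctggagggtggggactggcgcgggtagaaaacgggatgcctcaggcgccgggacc
Cubn: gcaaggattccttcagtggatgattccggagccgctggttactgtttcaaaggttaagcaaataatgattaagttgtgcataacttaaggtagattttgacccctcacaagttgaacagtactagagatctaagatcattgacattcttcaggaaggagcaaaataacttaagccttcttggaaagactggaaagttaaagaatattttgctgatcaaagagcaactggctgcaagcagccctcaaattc

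Of 9 organic anion and urate carriers, 4 were lower and 1 higher in Hap-I, and 3 were lower in Hap-II. Slc22a7, the carrier OAT2 (ENSMUSG00000067144, chromosome 17, 46432183 to 46438457), was the member with the largest fall as deposited. It stood at 299, 239.6, 204 and 225 TPM in C57, 50.4, 12.96, 13.3 and 19.01 TPM in Hap-I adults, 35.7, 114, 38.2 and 17.1 TPM in Hap-I aged mice and 122, 42.8, 6.91 and 15.2 TPM in Hap-II adults. All C57 values were above all values on western diet, where libraries ran from 6.91 to 122.1 TPM. The differences were -3.50 ± 0.68 (adjusted p = 0.00149) and -3.06 ± 0.68 (adjusted p = 0.00595). With a Y-linked covariate they were -2.08 ± 0.47 and -2.05 ± 0.44, smaller than the -2.69 ± 0.56 and -2.15 ± 0.52 of Cubn.

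Slc22a8 and Slc22a6 encode OAT3 and OAT1, the main basolateral entry routes of organic anions, and are neighbours on chromosome 19 with 6203 bases between them. Slc22a8 stood at 222, 285, 314 and 308 TPM in C57, 98.2, 45.7, 50.7 and 39.5 TPM in Hap-I adults, 80.01, 265, 144 and 37.2 TPM in Hap-I aged mice and 248, 75.5, 26.1 and 66.1 TPM in Hap-II adults. It fell in Hap-I (-2.33 ± 0.58, adjusted p = 0.00405) and in Hap-II (-1.87 ± 0.58, adjusted p = 0.0214), where 1 library reached the C57 range. Slc22a6 stood at 76.2, 99.6, 106 and 97.2 TPM in C57, 44.97, 63.8, 72.4 and 84.8 TPM in Hap-I adults, 39.5, 117, 225 and 85.9 TPM in Hap-I aged mice and 114, 40.5, 54.8 and 112 TPM in Hap-II adults. Its groups overlapped (-0.53 ± 0.42, adjusted p = 0.275 in Hap-I, -0.36 ± 0.42, adjusted p = 0.492 in Hap-II). Slc22a8 over Slc22a6 was 2.86 to 3.16 in C57 and 0.433 to 2.27 on western diet.

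The promoters of these neighbours are shown because 1 fell and the other did not pass, and both carry the same half-site. Capitals mark GTTAAT or its reverse complement, searched on both strands. The motif was found in 5 of the 33 members with a promoter in the RefSeq table, Slc22a6, Slc22a8, Slc34a1, Slc5a10 and Cltrn, and in 6.43% of all 32851 promoters. A match is a description of the letters and not a bound site. Bases just after the start were found in an annotated transcript of Slc22a8 but in none of Slc22a6, whose start is less certain. Slc22a6 lies at chr19:8617746-8617995, plus strand, and Slc22a8 at chr19:8592932-8593181, plus strand.
Slc22a6: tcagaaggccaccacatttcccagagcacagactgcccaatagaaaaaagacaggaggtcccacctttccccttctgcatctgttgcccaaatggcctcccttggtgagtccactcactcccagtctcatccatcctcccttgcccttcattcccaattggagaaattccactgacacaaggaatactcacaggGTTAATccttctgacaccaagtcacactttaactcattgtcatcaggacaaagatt
Slc22a8: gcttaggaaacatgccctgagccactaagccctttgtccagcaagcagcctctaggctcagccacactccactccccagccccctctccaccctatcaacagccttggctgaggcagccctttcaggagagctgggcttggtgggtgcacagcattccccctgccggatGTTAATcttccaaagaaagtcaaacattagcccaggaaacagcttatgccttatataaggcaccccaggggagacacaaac

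Slc22a12, Slc17a1 and Slc17a3 passed neither test as deposited. Slc22a12 encodes the brush border urate exchanger URAT1. It was at 119, 141, 153 and 149.8 TPM in C57, 116, 162, 146 and 126 TPM in Hap-I adults, 41.99, 127, 359 and 127 TPM in Hap-I aged mice and 211, 73.3, 137 and 203 TPM in Hap-II adults. Its differences were -0.04 ± 0.45 and 0.04 ± 0.45 (adjusted p = 0.945 and 0.949). Slc17a1, the anion transporter NPT1, was at 196, 281, 241 and 252 TPM in C57, 187, 286, 311 and 253 TPM in Hap-I adults, 118, 226, 395 and 192 TPM in Hap-I aged mice and 269, 183, 234 and 291 TPM in Hap-II adults, with differences of 0.08 ± 0.29 and 0.00 ± 0.29. Its neighbour Slc17a3 ranged from 65.2 to 341 TPM on western diet and from 175 to 263 TPM in C57, and did not pass either test (-0.29 ± 0.40 and -0.37 ± 0.40). Relative to the all-gene median these 3 genes lay between 0.23 and 0.88 higher. Under median-of-ratios rescaling Slc17a1 passed as higher in Hap-I.

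The exporters of the class were lower in part. Abcc4, the pump MRP4 of the brush border, was at 14.8, 24.00, 26.7 and 32.96 TPM in C57, 7.74, 3.35, 3.69 and 0.959 TPM in Hap-I adults, 7.76, 13.7, 4.67 and 3.27 TPM in Hap-I aged mice and 19.2, 6.43, 1.31 and 2.72 TPM in Hap-II adults. It fell by 2.52 (SE 0.58, adjusted p = 0.00281) in Hap-I and by 2.04 (SE 0.58, adjusted p = 0.0153) in Hap-II, where Hap-II library 1 overlapped C57. Abcc2, the pump MRP2, was at 19.5, 42.2, 41.6 and 42.2 TPM in C57, 23.03, 19.6, 17.5 and 11.4 TPM in Hap-I adults, 19.9, 35.6, 31.7 and 13.3 TPM in Hap-I aged mice and 40.1, 15.95, 12.2 and 18.9 TPM in Hap-II adults. Of the 6 settings it passed in Hap-I only as deposited (-0.96 ± 0.37, adjusted p = 0.0347), and its direction turned under median-of-ratios rescaling and with the length trend removed.

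Slco1a1, an organic anion carrier of the brush border known in mouse kidney for its dependence on androgen, was present or absent by library. It was at 0, 52.96, 72.9 and 73.8 TPM in Hap-I adults, 0.0612, 0.0562, 79.4 and 41.5 TPM in Hap-I aged mice, 0.0447, 0.293, 72.4 and 78.5 TPM in Hap-II adults and 0, 0, 0.0136 and 0.0253 TPM in C57. The 7 libraries with 41.5 to 79.4 TPM were the same 7 in which Eif2s3y was at 7.05 TPM or more. In the other 5 on western diet it was at most 0.293 TPM. The Hap-I difference of 4.53 ± 1.72 (adjusted p = 0.0310), whose size depends on the pseudocount, became 0.34 ± 0.58 (adjusted p = 0.645) with a Y-linked covariate and no longer passed. It also missed the threshold under median-of-ratios rescaling (adjusted p = 0.0565) and quantile normalization (adjusted p = 0.0594), and in 11 of 18 alternatives in all. In Hap-II it was 3.22 ± 1.72 (adjusted p = 0.133).

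Eif2s3y also separated other members among the 12 libraries on western diet. Counted without a test, 2 members were higher without overlap in the 7 libraries (Slco1a1 and Slc5a8) and 1 was lower (Abcc4), where 1.01% of all genes were higher and 4.51% lower without overlap. Slc5a8, a late-segment carrier of lactate and short-chain fatty acids, was 32.4 to 51.2 TPM in the 7, 12.3 to 28.5 TPM in the 5 and 20.6 to 28.0 TPM in C57. Abcc4 was 0.959 to 4.67 TPM in the 7, 6.43 to 19.2 TPM in the 5 and 14.8 to 33.0 TPM in C57. Slc22a7 just overlapped, at 6.91 to 38.2 TPM in the 7 and 35.7 to 122.1 TPM in the 5, against 204 to 299 TPM in C57.

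Several ratios split the same way. Slc22a8 over Slc22a6 was 0.433 to 0.716 in the 7 libraries, 1.86 to 2.27 in the 5 and 2.86 to 3.16 in C57. Slc22a7 over Slc22a6 was 0.126 to 0.224 in the 7, 0.904 to 1.12 in the 5 and 1.94 to 3.92 in C57. In C57 Eif2s3y was at most 0.107 TPM. In the 5 libraries Lrp2 was 31.6 to 103.5 TPM, Cubn 9.56 to 33.2 TPM and Slc6a18 82.0 to 194 TPM, the last against 262 to 339 TPM in C57. What underlies the difference of Eif2s3y between libraries, and its part in the comparisons with C57, was not tested. With a Y-linked covariate 9 members were called in Hap-I, where 25.4% of all genes were, and 6 in Hap-II, where 14.9% were. With only the libraries under 5 TPM of Eif2s3y, which leave 1 Hap-I adult assumed to vary like the other groups, 0 of 38 were called by limma in either comparison, where 0.0395% of all genes were called in Hap-I and 0.316% in Hap-II. An unadjusted p under 0.05 was reached by 11 members in Hap-I and 8 in Hap-II, where 20.4% and 19.2% of all genes reached it.

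**Figure D5:**
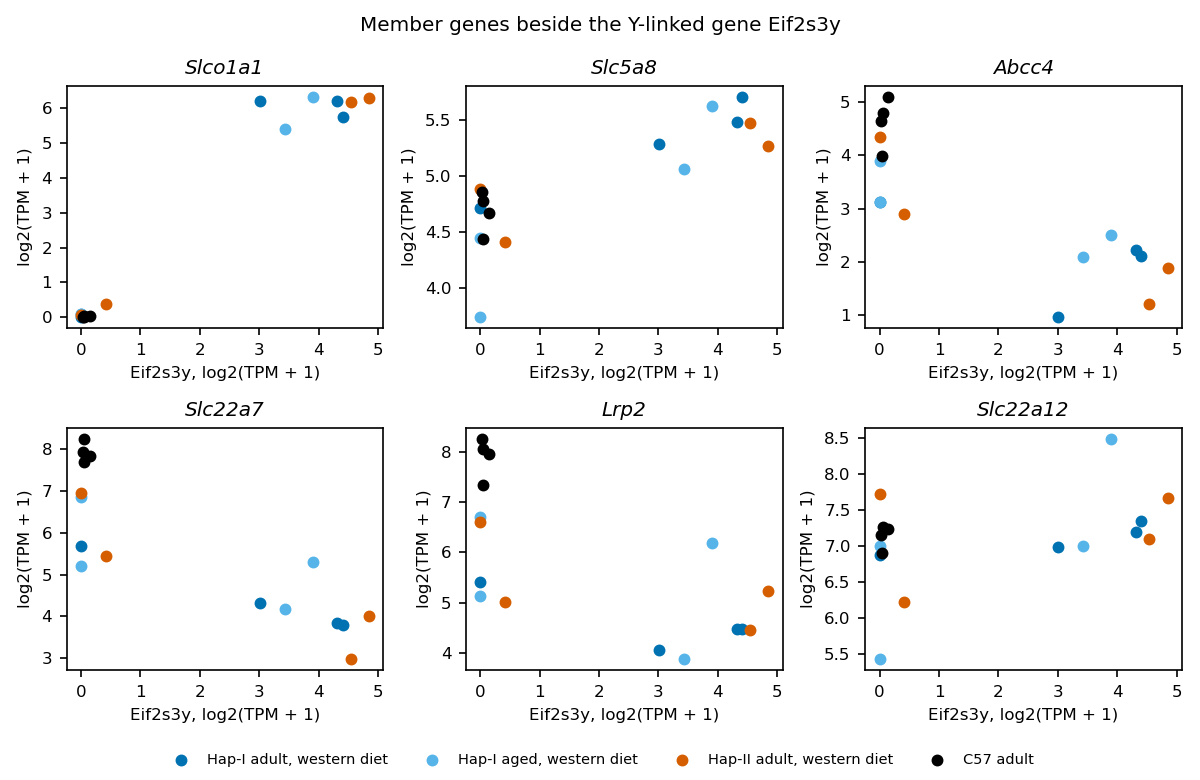
Level of 6 members against the Y-linked gene Eif2s3y, both as log2(TPM + 1), in the 16 kidney libraries (points, coloured by group). Slco1a1 is near 0 wherever Eif2s3y is, Slc5a8 is higher and Abcc4 lower in the 7 libraries on the right, and Lrp2 is lower than in C57 on both sides.

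Phosphate and sulfate carriers were lower in Hap-I adults in 2 of 4 members and in none in Hap-II. Slc34a1 encodes NaPi-IIa (ENSMUSG00000021490, chromosome 13, 55398187 to 55415592), the main brush border phosphate carrier and, with Cltrn, the most abundant member. It was at 984, 1338, 1242 and 1670.3 TPM in C57, 549, 469, 568 and 253 TPM in Hap-I adults, 283, 1449.6, 1817 and 295 TPM in Hap-I aged mice and 1279, 411, 274 and 769.8 TPM in Hap-II adults. The Hap-I adults lay below C57 without overlap (-1.55 ± 0.57, adjusted p = 0.0267), while the Hap-II adults overlapped it (-1.15 ± 0.57, adjusted p = 0.106). Under median-of-ratios rescaling the Hap-I difference no longer passed.

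Slc34a3 encodes NaPi-IIc, the second sodium-phosphate carrier. It was at 25.5, 45.1, 41.9 and 45.4 TPM in C57, 19.5, 17.3, 17.7 and 7.12 TPM in Hap-I adults, 14.9, 62.01, 55.1 and 7.15 TPM in Hap-I aged mice and 75.5, 26.7, 10.5 and 29.6 TPM in Hap-II adults, and passed neither test (adjusted p = 0.0592 and 0.570). Its ratio to Slc34a1 was 0.0385 to 0.0650 in Hap-II adults, above the 0.0259 to 0.0338 of C57. In Hap-I adults the ratio was 0.0281 to 0.0368, and in Hap-I aged mice 0.0242 to 0.0526, which overlaps Hap-II. On western diet it was 0.0242 to 0.0385 in the 7 libraries with Eif2s3y and 0.0355 to 0.0650 in the other 5. Slc13a1, the brush border sulfate carrier, was at 105, 160.0, 181 and 159.8 TPM in C57, 96.6, 69.2, 57.4 and 47.2 TPM in Hap-I adults, 129.7, 179.6, 209.6 and 30.9 TPM in Hap-I aged mice and 299, 82.9, 71.6 and 122 TPM in Hap-II adults. It did not pass in Hap-I (-1.18 ± 0.51, adjusted p = 0.0531) or Hap-II (-0.29 ± 0.51). The basolateral sulfate exchanger Slc26a1 was at 20.9, 32.8, 27.7 and 31.96 TPM in C57, 13.5, 13.4, 14.3 and 7.98 TPM in Hap-I adults, 7.33, 25.2, 39.8 and 10.1 TPM in Hap-I aged mice and 29.9, 9.26, 7.88 and 21.3 TPM in Hap-II adults, and was lower in Hap-I (-1.15 ± 0.46, adjusted p = 0.0378), with a difference of -0.87 ± 0.46 in Hap-II that did not pass.

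Among sugar carriers 3 of 4 members were lower in Hap-I and 1 in Hap-II. Slc5a2 encodes SGLT2 (ENSMUSG00000030781, chromosome 7, 128265657 to 128272430), which takes up most filtered glucose in the early tubule. It was at 176, 189, 210.1 and 248 TPM in C57, 142, 82.8, 101 and 95.5 TPM in Hap-I adults, 109, 229, 244 and 72.1 TPM in Hap-I aged mice and 237, 111, 68.6 and 149.9 TPM in Hap-II adults. It was lower in Hap-I (-0.98 ± 0.38, adjusted p = 0.0345), but at 0.04 under median-of-ratios rescaling its direction turned. Slc5a1 encodes SGLT1 of the late tubule. It was at 28.3, 41.6, 34.7 and 35.2 TPM in C57, 13.5, 8.15, 6.32 and 5.31 TPM in Hap-I adults, 14.6, 30.3, 22.5 and 6.32 TPM in Hap-I aged mice and 32.6, 13.9, 7.11 and 12.8 TPM in Hap-II adults. It fell in Hap-I (-2.01 ± 0.43, adjusted p = 0.00218) and in Hap-II (-1.21 ± 0.43, adjusted p = 0.0377). The Hap-II call was lost in each of the other 5 settings, with -0.51 under median-of-ratios rescaling (adjusted p = 0.205), and in 13 of 20 alternatives in all. The ratio of Slc5a1 to Slc5a2 was 0.142 to 0.221 in C57 and 0.0556 to 0.138 in all 12 libraries on western diet.

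Slc5a10, the mannose and fructose carrier SGLT5, was at 169.8, 157, 154 and 182 TPM in C57, 89.99, 47.2, 44.1 and 44.1 TPM in Hap-I adults, 56.1, 151, 161 and 38.9 TPM in Hap-I aged mice and 231, 91.97, 44.4 and 98.3 TPM in Hap-II adults. It fell in Hap-I (-1.61 ± 0.46, adjusted p = 0.00847). Hap-II library 1 was above all of C57 (-0.74 ± 0.46, adjusted p = 0.194). Slc2a2, the basolateral glucose exit GLUT2, ranged from 14.9 to 76.0 TPM on western diet and from 29.2 to 65.1 TPM in C57, and passed neither test.

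Amino acid and peptide carriers held 7 of 9 members lower in Hap-I and 3 in Hap-II, with 1 higher. Slc6a18 and Slc6a19 lie 1721 bases apart on chromosome 13 and encode B0AT3 of the late and B0AT1 of the early tubule, carriers of neutral amino acids. Slc6a18 was at 262, 339, 282 and 264 TPM in C57, 111, 59.4, 52.5 and 39.1 TPM in Hap-I adults, 81.98, 194, 94.3 and 45.4 TPM in Hap-I aged mice and 161, 106, 43.9 and 69.6 TPM in Hap-II adults. No library on western diet reached C57 (-2.21 ± 0.42, adjusted p = 0.00138 in Hap-I, -1.73 ± 0.42, adjusted p = 0.00828 in Hap-II). Slc6a19 was at 88.7, 147, 136 and 138 TPM in C57, 52.3, 51.1, 62.8 and 29.9 TPM in Hap-I adults, 46.7, 97.4, 133 and 17.3 TPM in Hap-I aged mice and 165, 71.4, 50.9 and 72.6 TPM in Hap-II adults. It fell in Hap-I (-1.38 ± 0.49, adjusted p = 0.0224) but not past the threshold in Hap-II (-0.62 ± 0.49, adjusted p = 0.303).

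Cltrn, collectrin (ENSMUSG00000015401, chromosome X, 164088830 to 164118860), brings Slc6a19 and its relatives to the brush border and was the most abundant member in 3 of the 4 kidney groups. It was at 1075, 1276, 1152 and 989 TPM in C57, 1185, 1488, 1448 and 903 TPM in Hap-I adults, 1846, 1723, 1592 and 703 TPM in Hap-I aged mice and 1996, 1983, 1742 and 1822 TPM in Hap-II adults. Hap-II adults were above C57 without overlap (0.75 ± 0.26, adjusted p = 0.0318) and Hap-I adults were not (0.14 ± 0.26, adjusted p = 0.637). The Hap-II call was lost under quantile normalization, with a Y-linked covariate and in 11 of 20 alternatives in all. Under median-of-ratios rescaling Cltrn passed as higher in Hap-I adults too (1.16 ± 0.28, adjusted p = 0.00820 in limma). Its promoter, at chrX:164089937-164090186, plus strand, is shown because it carries the half-site in both orientations. The Slc34a1 promoter, not shown, carries it in both orientations too.
Cltrn: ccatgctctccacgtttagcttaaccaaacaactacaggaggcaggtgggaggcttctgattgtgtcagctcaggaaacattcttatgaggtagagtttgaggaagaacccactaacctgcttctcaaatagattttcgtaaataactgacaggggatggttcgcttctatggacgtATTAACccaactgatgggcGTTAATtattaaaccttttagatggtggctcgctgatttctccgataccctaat

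Slc3a1 and Slc7a9 encode the heavy and light chain of the cystine carrier. Slc3a1 was at 456, 596, 491 and 504 TPM in C57, 192, 161, 159 and 107 TPM in Hap-I adults, 160.1, 573, 309 and 113 TPM in Hap-I aged mice and 415, 209, 144 and 208 TPM in Hap-II adults. It fell in Hap-I (-1.74 ± 0.40, adjusted p = 0.00288) and Hap-II (-1.17 ± 0.40, adjusted p = 0.0325). Slc7a9 was at 96.4, 124, 127 and 137 TPM in C57, 86.3, 58.6, 71.3 and 40.1 TPM in Hap-I adults, 64.5, 122, 108 and 35.1 TPM in Hap-I aged mice and 159.9, 89.4, 61.2 and 74.04 TPM in Hap-II adults, lower in Hap-I (-0.95 ± 0.36, adjusted p = 0.0310), with the direction turned under median-of-ratios rescaling. Slc3a1 over Slc7a9 was 3.67 to 4.81 in C57 and 2.23 to 4.72 on the diet, where 1 aged library overlapped C57.

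Slc7a7 and Slc7a8 are basolateral exchangers of cationic and neutral amino acids. Slc7a7 was at 8.29, 12.9, 17.7 and 10.3 TPM in C57, 3.32, 6.26, 5.35 and 6.98 TPM in Hap-I adults, 13.8, 19.3, 14.5 and 5.27 TPM in Hap-I aged mice and 27.6, 4.29, 4.26 and 9.78 TPM in Hap-II adults, and passed no test. Slc7a8 was at 35.3, 79.8, 71.2 and 72.6 TPM in C57, 21.2, 9.55, 9.91 and 3.95 TPM in Hap-I adults, 16.7, 78.03, 38.05 and 5.50 TPM in Hap-I aged mice and 69.5, 17.6, 5.53 and 17.1 TPM in Hap-II adults. It fell in Hap-I (-2.57 ± 0.71, adjusted p = 0.00690) and spread more than any member but Slco1a1, with a residual SD of 1.17 on the log2 scale.

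Slc6a13 and Slc15a2 complete the class. Slc6a13, a basolateral carrier of GABA and taurine, was at 97.3, 119, 107 and 103 TPM in C57, 35.2, 37.6, 33.6 and 30.6 TPM in Hap-I adults, 28.3, 89.7, 73.7 and 31.7 TPM in Hap-I aged mice and 69.7, 36.5, 30.9 and 45.9 TPM in Hap-II adults. Every library on western diet was below C57 (-1.61 ± 0.32, adjusted p = 0.00163 and -1.27 ± 0.32, adjusted p = 0.0100). Slc15a2, the peptide carrier PEPT2 of the late tubule, was at 172, 173, 186 and 150.3 TPM in C57, 121, 71.5, 52.4 and 43.3 TPM in Hap-I adults, 71.6, 138, 58.6 and 39.02 TPM in Hap-I aged mice and 146, 111, 73.95 and 49.4 TPM in Hap-II adults. It passed in Hap-I (-1.33 ± 0.38, adjusted p = 0.00821) and missed the threshold in Hap-II (-0.94 ± 0.38, adjusted p = 0.0586).

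Of the carboxylate and ascorbate carriers the same 3 of 5 were lower in both comparisons. Slc13a3, the basolateral dicarboxylate carrier, was at 218, 220.4, 230.2 and 266 TPM in C57, 124, 67.3, 69.2 and 50.8 TPM in Hap-I adults, 71.6, 283, 174 and 57.7 TPM in Hap-I aged mice and 202, 81.5, 34.2 and 92.9 TPM in Hap-II adults, with differences of -1.65 ± 0.49 and -1.44 ± 0.49 (adjusted p = 0.0100 and 0.0320). Slc13a2, the brush border citrate carrier, was at 32.9, 40.6, 31.96 and 43.9 TPM in C57, 17.4, 11.8, 13.5 and 9.22 TPM in Hap-I adults, 13.8, 39.4, 19.4 and 10.1 TPM in Hap-I aged mice and 31.6, 19.1, 7.13 and 11.4 TPM in Hap-II adults (-1.47 ± 0.40 and -1.24 ± 0.40). Slc23a1, the vitamin C carrier, was at 122, 146, 133 and 147 TPM in C57, 73.4, 50.7, 45.3 and 31.6 TPM in Hap-I adults, 60.9, 145, 70.03 and 33.7 TPM in Hap-I aged mice and 118, 61.1, 34.3 and 47.7 TPM in Hap-II adults (-1.49 ± 0.39 and -1.20 ± 0.39). None of these 3 passed under median-of-ratios rescaling.

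The 2 lactate carriers of the class behaved otherwise. Slc5a8 was at 20.6, 28.03, 26.3 and 24.4 TPM in C57, 25.3, 51.2, 43.7 and 38.01 TPM in Hap-I adults, 12.3, 20.7, 48.4 and 32.4 TPM in Hap-I aged mice and 28.5, 20.3, 43.4 and 37.6 TPM in Hap-II adults. It missed the threshold as deposited (0.61 ± 0.34, adjusted p = 0.124) and passed as higher in Hap-I under median-of-ratios, quantile, mitochondrial and length adjustment, but not with a Y-linked covariate. Slc5a12, the lactate carrier of the early tubule, ranged from 16.9 to 176 TPM on western diet and from 46.5 to 114 TPM in C57 and passed neither test. Slc4a4, the basolateral bicarbonate exit, ranged from 25.2 to 185 TPM on the diet. In C57 it was 145 to 174 TPM in 3 libraries and 49.5 TPM in library 1. It passed in neither comparison in any of the 6 settings, with 0.018 in Hap-I under median-of-ratios rescaling (adjusted p = 0.976 in limma). Without C57 library 1 it passed as lower in Hap-I (-1.41, adjusted p = 0.0268), where 62.8% of all genes were called.

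Organic cation and carnitine carriers were lower in 3 of 4 members in Hap-I and 2 in Hap-II. Slc22a2, the basolateral cation carrier OCT2, was at 103, 128, 122 and 114 TPM in C57, 35.3, 55.97, 54.4 and 53.9 TPM in Hap-I adults, 27.4, 82.3, 134 and 48.1 TPM in Hap-I aged mice and 86.02, 32.6, 38.8 and 82.2 TPM in Hap-II adults (-1.23 ± 0.40, adjusted p = 0.0146 and -1.08 ± 0.40, adjusted p = 0.0414). Slc47a1, its brush border partner MATE1, was at 129, 179, 174 and 179 TPM in C57, 123, 147, 149 and 111 TPM in Hap-I adults, 105, 161, 255 and 81.5 TPM in Hap-I aged mice and 176, 105, 114 and 162 TPM in Hap-II adults. It passed neither test as deposited (-0.32 ± 0.29 and -0.27 ± 0.29). Slc22a2 over Slc47a1 was 0.635 to 0.799 in C57 and 0.262 to 0.590 on western diet, without overlap.

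Slc22a5, the carnitine carrier OCTN2, was at 85.2, 141, 151 and 140.3 TPM in C57, 75.7, 49.1, 52.5 and 49.5 TPM in Hap-I adults, 60.7, 94.6, 85.4 and 37.3 TPM in Hap-I aged mice and 126, 58.8, 43.8 and 71.1 TPM in Hap-II adults (-1.17 ± 0.32 and -0.86 ± 0.32, adjusted p = 0.00713 and 0.0462). It shares 35.8% of its sequence words of 31 bases with its copy Slc22a21, the largest share of any member, so that its level is less certain. Slc22a4, its neighbour OCTN1, was at 46.3, 45.8, 38.7 and 49.2 TPM in C57, 31.7, 29.8, 24.8 and 20.4 TPM in Hap-I adults, 22.3, 51.97, 35.9 and 17.8 TPM in Hap-I aged mice and 48.2, 42.3, 21.5 and 24.4 TPM in Hap-II adults. It was lower in Hap-I as deposited (-0.75 ± 0.31, adjusted p = 0.0453), and its direction turned under median-of-ratios and quantile scaling.

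By segment, 5 of 11 early-tubule members and 4 of 6 late ones were lower in Hap-I, and 1 of 11 and 3 of 6 in Hap-II. Of all genes tested, 59.7% were lower in Hap-I and 36.9% in Hap-II. The medians of early and late members were -1.02 and -1.67 in Hap-I, and -0.42 and -1.08 in Hap-II. Those of all genes were -0.80 and -0.59. The late members were Slc5a1, Slc6a18, Slc15a2, Slc5a8, Slc22a7 and Slco1a1, of which Slco1a1 was the member called higher. Slco1a1 and Slc5a8 also separated the libraries on western diet by Eif2s3y without overlap. The early ones were Slc34a1, Slc34a3, Slc5a2, Slc2a2, Slc6a19, Slc7a7, Slc7a8, Slc5a12, Slc4a4, Slc22a6 and Slc22a8. The difference between the segments was not tested.

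On western diet, neither age nor haplotype gave a call in the module. For age, 0 of 39 members passed limma's test, where 0.031% of all genes were called, and 2 had an unadjusted p under 0.05, Slc5a1 and Slc7a7, where 16.1% of all genes had. Their differences between aged and adult Hap-I mice were 0.95 ± 0.43 and 1.05 ± 0.47 (adjusted p = 0.298 and 0.291). The largest increases were those of Slc7a8 (1.20 ± 0.71), Slc7a7 and Cubn (1.00 ± 0.52), and the largest decreases those of Slco1a1 (-1.57 ± 1.72), Slc5a8 (-0.58 ± 0.34) and Slc17a1 (-0.26 ± 0.29), none of them past the threshold. Eif2s3y was at 5 TPM or more in 3 of 4 Hap-I adults and 2 of 4 aged mice. With a Y-linked covariate the decreases were -0.14 ± 0.50, -0.35 ± 0.23 and -0.13 ± 0.25. The increases were then 0.89 ± 0.64, 0.97 ± 0.48 and 0.80 ± 0.49. The module's median as deposited was 0.49, beside 0.32 over all genes. It was 0.21 without aged library 2, 0.24 without aged library 3, then below the 0.29 of all genes, and 0.75 without aged library 4. Libraries of the aged group were far apart. Libraries 2 and 3 held the 2 highest Slc34a1 values of the aged group, 1449.6 and 1817 TPM, and libraries 1 and 4 held 283 and 295 TPM. With array weights, which give such libraries less influence, 11 of 39 members (28.2%) passed as higher in aged mice. Of all genes 17.0% were then called, 2041 higher and 158 lower. The same weights called 85.1% of all genes between Hap-I adults and C57 and 75.1% between Hap-II adults and C57.

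For haplotype, 0 of 39 members passed, where 0.0774% of all genes were called, and 1 had an unadjusted p under 0.05, where 3.26% of all genes had. That was Cltrn, whose mean was 1256 ± 271 TPM in Hap-I adults, against 1886 ± 124 TPM in Hap-II (SD, n = 4), a difference of -0.61 ± 0.26 without overlap (adjusted p = 0.817). The largest decreases in Hap-I were those of Slc34a3 (-0.93 ± 0.60), Slc7a8 (-0.91 ± 0.71) and Slc13a1 (-0.89 ± 0.51), and the largest increases those of Slco1a1 (1.31 ± 1.72), Slc5a8 (0.29 ± 0.34) and Slc17a1 (0.08 ± 0.29), none past the threshold. Eif2s3y was at 5 TPM or more in 3 of 4 Hap-I adults and 2 of 4 Hap-II adults. With a Y-linked covariate the increases were 0.12 ± 0.50, 0.10 ± 0.23 and -0.03 ± 0.25. The decreases were then -0.80 ± 0.60, -0.65 ± 0.64 and -0.75 ± 0.49. The module's median as deposited was -0.39, beside -0.22 over all genes. Without Hap-II library 1 it was -0.027, beside -0.085 over all genes, and without Hap-II library 3 it was -0.65. Hap-II library 1 held the highest value of its group in most members, with Lrp2 at 96.4 TPM against 21.1 to 36.4 TPM in the other 3.

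Within groups the members moved together. Across the 16 kidney libraries, with group means removed, the median of 741 pairwise correlations was 0.75, and 673 were above 0. The mean of the module and the mean of the other genes correlated at 0.86, so that much of this is shared with the whole table. The points share library, scale and tissue content. Slc34a3 and Slc34a1 followed the mean of the other members most closely (0.98 and 0.97), and Slco1a1 and Slc5a8 least (-0.39 and 0.13). The residual SD of the module had a median of 0.68 on the log2 scale, against 0.41 over all genes tested.

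Other genes of the same segment were lower in varying number, where 59.7% of all genes were lower in Hap-I and 36.9% in Hap-II. Of 28 accessory transporters, 27 were tested, and 18 were lower in Hap-I and 12 in Hap-II. Among them were the organic anion carrier Slc22a26 (24.2 ± 14.2 TPM in C57, 2.05 ± 0.76 in Hap-I, 2.36 ± 1.47 in Hap-II), the urate carrier Slc22a13 (154 ± 15.1 TPM in C57, 19.8 ± 13.4 in Hap-I and 35.9 ± 37.9 in Hap-II) and Slc22a19. In the 7 libraries with Eif2s3y, 1.01% of all genes were above the other 5 libraries on the diet without overlap, and 4.51% were below. Of the 27 transporters 3 were above and 3 below (Slc22a19, Slc7a12 and Abcb1b), named after their values were seen. The higher ones also lay above C57 and were Slc7a13 (135 to 301 TPM, against 1.21 to 2.14 in C57), Slc22a30 (57.6 to 107 against 6.48 to 11.3) and Slc22a28 (65.6 to 128 against 14.5 to 29.1). Of 26 scaffolds, regulators and brush border enzymes, 23 were lower in Hap-I and 12 in Hap-II, including the scaffold Slc9a3r2 and the megalin chaperone Lrpap1. Lrpap1 averaged 498 ± 37.6 TPM in C57, 138 ± 17.0 TPM in Hap-I adults and 178 ± 96.3 TPM for Hap-II (SD, n = 4, adjusted p = 0.00221 and 0.00871 in limma). Of 12 metabolic markers, 4 were lower in Hap-I (Miox, Hao2, Dao and Ass1) and 1 in Hap-II (Miox). Their medians of -0.60 and -0.37 lay above those of all genes.

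Markers of other cell types were lower too, as were 59.7% of all genes in Hap-I and 36.9% in Hap-II. Of 12 thick limb, distal and collecting duct markers, 11 were lower in Hap-I and 6 in Hap-II, their sum being 2750.6 to 4593.4 TPM in C57 and 173 to 2520.3 TPM on western diet. Podocyte markers were lower in 2 of 4 in both, urothelial ones in 3 of 4 in both, leukocyte ones in 2 and 0 of 6 and tubular injury markers in 5 and 2 of 6. All 7 stromal and smooth muscle markers (107 to 221 TPM in C57, 29.8 to 81.9 on the diet) and all 5 endothelial ones (175 to 234 and 63.0 to 175 TPM) were lower in both. Their part in the members' differences was not tested. In bulk tissue, fewer cells of a type and less RNA per cell cannot be told apart.

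In the 8 Hap-I libraries with no diet on the label, 29 of the 40 members were under 2 TPM throughout, and 35 had their highest value there below their lowest kidney value. Of the members not under 2 TPM throughout, the highest were Slc4a4 (29.4 to 69.9 TPM), Slc7a8 (30.2 to 39.0 TPM) and Slc15a2 (25.4 to 31.7 TPM). Slc4a4 and Slc15a2 are known also from glia. Slc13a3 followed at 5.63 to 10.7 TPM, Slc22a8 at 6.01 to 9.43 TPM and Slc22a5 at 5.24 to 9.06 TPM. Slc22a4 was at 4.46 to 7.27 TPM, Slc6a13 at 2.39 to 8.05 TPM and Abcc4 at 3.24 to 5.15 TPM. Not among the 35 were Slc4a4, Slc7a8 and Abcc4, and Slco1a1 and Slc9a3, which were near 0 there. Lrp2 was at most 0.861 TPM and Cltrn at most 1.87 TPM. These libraries enter no comparison of the module.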

How the data were processed

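TPM values for 24 mouse libraries were taken as deposited. GRCm38, kallisto and DESeq2 appear in the submitters' processing notes, with no version or role. Nothing else on how the authors made the values is given in the sources used here. The labels' protocols give Qiagen RNeasy extraction and stranded poly(A) libraries. TPM keeps no depth, so that the depth of each library is unknown and no counting interval is given. Of 30153 identifiers, 29811 matched a GENCODE M21 symbol. Values were taken as log2(TPM + 1), genes with at least 1 TPM in at least 4 of the 16 kidney libraries were kept (12923), and 1 model over the 4 kidney groups was fitted with limma 3.58.1 in R 4.3.3 (empirical Bayes with trend, two-sided, Benjamini-Hochberg over all genes tested, threshold 0.05). The fit was tested on simulated data. The members and lists were chosen with earlier results of these data known. All values were given for the members of a fixed panel, for called members and for the 3 largest changes each way, and ranges for the rest. Alternatives covered pseudocount, filter, scaling, array weights, the samples in the fit, a Y-linked covariate, a replicate block and each library left out. Removal of a length trend and the restriction to low Eif2s3y were chosen after seeing the data. Promoters come from RefSeq, which lists 33 of the 40 members.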

Additional observations from a re-analysis of the deposited data

Results flagged for a closer look

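In 18 of 156 combinations of a member and a group of 4 libraries, 1 library lay far from the other 3 by Dixon's criterion. Chance alone marks about 1 in 20 independent groups. Members share libraries and move together, so that the 18 cannot be weighed against that rate. Of the 18, 9 were in C57 library 1, which was the lowest of its group for Slc34a3 (25.5 TPM), Slc2a2 (29.2 TPM), Slc6a19 (88.7 TPM), Slc7a8 (35.3 TPM), Slc5a12 (46.5 TPM), Slc4a4 (49.5 TPM), Abcc2 (19.5 TPM), Slc22a5 (85.2 TPM) and Slc47a1 (129 TPM). Without this library 25 members were called in Hap-I and 16 in Hap-II, where 62.8% and 44.0% of all genes were called. Hap-I adult library 1, the library of its group with little Eif2s3y, stood apart for Slc5a10 (89.99 TPM), Slc17a3 (107 TPM), Slc22a2 (35.3 TPM), Slc22a5 (75.7 TPM) and Slco1a1 (0 TPM). Hap-I adult library 4 was low for Slc34a3 (7.12 TPM), Slc26a1 (7.98 TPM) and Slc4a4 (25.2 TPM). Hap-I aged library 4 was low for Cltrn (702.5 TPM). The causes were not tested.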

How the results depend on the processing

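Shares in brackets are those of all genes called in the same setting. Of 39 members tested, 25 were called between Hap-I adults and C57 (62.0%), 14 under median-of-ratios rescaling (32.0%), 15 under quantile normalization (30.3%), 9 with a Y-linked covariate (25.4%) and 13 with the length trend removed (30.01%). Libraries with little Eif2s3y gave 0 (0.0395%), but hold 1 Hap-I adult, and the count says nothing about stability. Further settings gave 18 without a low filter (38.8%), 19 without mitochondrially encoded genes (44.3%) and 34 with array weights (85.1%). Leaving out 1 library gave 17 to 26. The lowest, 17, came without Hap-I adult library 4 (46.8%) or C57 library 2 (50.9%), and 26 without Hap-I adult library 1 (62.9%). Between Hap-II adults and C57, 15 were called (39.7%), with 9 without a low filter (23.1%), 6 under median-of-ratios rescaling (22.6%), 9 under quantile normalization (22.6%), 9 without mitochondrially encoded genes (25.96%), 28 with array weights (75.1%), 6 with a Y-linked covariate (14.9%), 7 with the length trend removed (22.7%) and 0 with little Eif2s3y (0.316%), where 2 Hap-II adults are left. Leaving out 1 library gave 5 to 22, namely 22, 9, 5 and 7 without Hap-II libraries 1 to 4 (54.2, 32.0, 14.0 and 22.8%), and 7, 7 and 6 without C57 libraries 2, 3 and 4 (21.0, 21.8 and 18.2%). For age, array weights gave 11 calls (17.0%), and for age and haplotype leaving out any 1 library gave 0. With the replicate block, 0 members were called for age or haplotype. The labels state no pairing, and deviations of same-numbered libraries correlated between -0.136 and 0.525. Slc5a2 turned from -0.98 to 0.038 in Hap-I under median-of-ratios rescaling. The causes were not tested beyond the fewer samples or genes in the fit. Depth is unknown, so that low values such as those of Slc9a3 carry no interval.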
